A study of Mus musculus with 14 samples.

Results

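C2C12 cells, an established mouse line of skeletal muscle myoblasts, were compared by RNA sequencing before and after 7 days in a medium that kept fetal calf serum (FCS) and carried a hormone cocktail used to induce fat cells. The comparison rests on 4 of the 14 libraries of the series, chosen by their labels alone: 2 of growing cells in 20% FCS, here day 0, and 2 of cells after 7 days in medium DM2. DM2 held 10% FCS with 4 agents: rosiglitazone at 2 µM, an agonist of the nuclear receptor PPAR-gamma, dexamethasone at 0.5 µM, a glucocorticoid, IBMX at 0.5 mM, which blocks the breakdown of cAMP, and insulin at 1 µg/ml. Day 0 and day 7 thus differ in time, in FCS and in all 4 agents at once, and these cannot be told apart. Libraries used beside them, 2 per group, came from DM2 at day 2, from DM1 (2% horse serum, no cocktail) and from DM3 (2% horse serum with the cocktail of DM2), both at day 2 and day 7. All groups come from the same cell line and all media were renewed every other day. The labels number the replicates without calling them separate cultures, and p-values then reflect variation between libraries that may be technical only.

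A myoblast that leaves the cell cycle can fuse into a myotube and build contractile filaments, and under PPAR-gamma agonists and glucocorticoids some muscle precursors can turn towards fat. Cells that make much secretory protein, or whose endoplasmic reticulum (ER) is stressed, switch on chaperones through the unfolded protein response, whose sensors are Ern1, Atf6 and Eif2ak3. The kinase Eif2ak3 shares its effector Atf4 with the sensor of amino acid shortage, and Atf4 drives genes of amino acid uptake and synthesis.

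The day 0 libraries held 28450220 and 27723977 expected counts and the DM2 day 7 libraries 29784885 and 29402114, within a range of 21907617 to 29784885 over all 14. Expression is given in CPM, that is counts per 1e6 after TMM adjustment of the library size, for replicate 1 and then replicate 2. The value after ± is the standard error (SE) of a log2 fold change. A gene is said to rise or fall where its p, from the quasi-likelihood test of edgeR and adjusted by Benjamini-Hochberg over 15973 genes, was under 0.05. By that rule 8854 genes (55.4%) changed, 3921 (24.5%) higher and 4933 (30.9%) lower in DM2 at day 7. Those with at least a 2-fold change were 1732 higher (10.8%) and 2245 lower (14.1%). Scaling by library totals alone moved the split to 2825 higher and 6507 lower, and the median log2 fold change of all genes from -0.03 to -0.256. Pseudogenes took 2.5 and 3.87% of counts at day 0 and 5.7 and 5.92% in DM2 at day 7, and the 10 most abundant genes took 5.77 and 5.64% against 8.65 and 9.15%. The 8 myoblast markers summed to 2830 and 2540 CPM at day 0 and to 1670 and 1870 CPM at day 7. Of them 4 were lower and 1, Myf5, was higher. In bulk RNA, fewer cells that express a gene and less of its RNA per cell cannot be told apart.

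**Figure D1:**
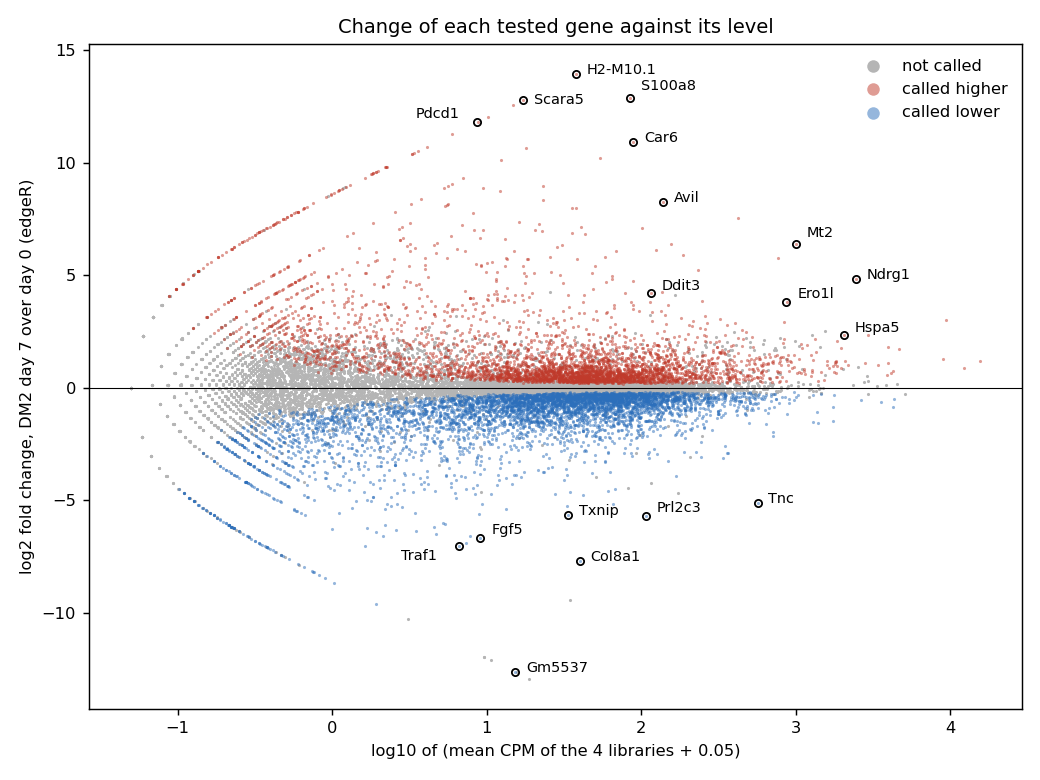
Fitted log2 fold change of DM2 day 7 over day 0 (vertical axis) against log10 of the mean CPM over the 4 libraries with a small constant added (horizontal axis), each point 1 of the 15973 genes tested. Genes called higher (3921) are red, genes called lower (4933) blue and the rest grey, with some of the genes named in the text circled.

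Promoter sequences of 8 genes that changed are shown because they hold letters known to be read by the regulators of the pathways described below: ER stress elements, elements for C/EBP-ATF dimers such as Atf4, and the E2F and CHR elements of cycling genes. They were picked for holding them. Each is the 150 bases before the gene's start, from RefSeq on GRCm38.p6, written 5′ to 3′ on the strand of the gene, with the motif in capitals.
Hspa5 (chr2:34771940-34772089, plus strand): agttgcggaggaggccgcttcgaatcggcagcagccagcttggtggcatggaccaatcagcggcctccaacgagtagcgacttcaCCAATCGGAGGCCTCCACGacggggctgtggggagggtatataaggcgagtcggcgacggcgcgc
Creld2 (chr15:88819496-88819645, plus strand): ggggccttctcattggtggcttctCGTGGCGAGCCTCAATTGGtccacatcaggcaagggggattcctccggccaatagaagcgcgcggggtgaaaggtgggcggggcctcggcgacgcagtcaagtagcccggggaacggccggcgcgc
Herpud1 (chr8:94386279-94386428, plus strand): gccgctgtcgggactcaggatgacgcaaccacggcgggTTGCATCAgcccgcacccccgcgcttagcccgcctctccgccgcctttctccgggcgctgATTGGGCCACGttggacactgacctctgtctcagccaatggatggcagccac
Nupr1 (chr7:126625471-126625620, minus strand): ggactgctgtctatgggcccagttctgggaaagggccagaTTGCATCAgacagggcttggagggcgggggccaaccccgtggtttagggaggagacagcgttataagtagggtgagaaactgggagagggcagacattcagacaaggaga
Asns (chr6:7693210-7693359, minus strand): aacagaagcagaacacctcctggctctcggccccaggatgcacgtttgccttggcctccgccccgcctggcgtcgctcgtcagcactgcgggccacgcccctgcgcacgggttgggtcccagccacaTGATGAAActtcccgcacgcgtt
Slc7a11 (chr3:50443614-50443763, minus strand): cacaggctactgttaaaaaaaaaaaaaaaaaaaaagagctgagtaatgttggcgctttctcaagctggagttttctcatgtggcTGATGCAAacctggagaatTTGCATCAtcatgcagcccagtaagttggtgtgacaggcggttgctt
Mcm6 (chr1:128359706-128359855, minus strand): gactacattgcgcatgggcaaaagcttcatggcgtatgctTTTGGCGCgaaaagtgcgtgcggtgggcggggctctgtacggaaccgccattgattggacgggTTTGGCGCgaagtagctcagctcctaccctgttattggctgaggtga
Cdk1 (chr10:69352913-69353062, minus strand): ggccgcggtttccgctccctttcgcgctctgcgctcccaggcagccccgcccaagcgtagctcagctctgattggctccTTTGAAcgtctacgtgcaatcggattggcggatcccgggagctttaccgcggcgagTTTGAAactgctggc

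In Hspa5 the capitals mark the ER stress element ERSE (CCAAT, any 9 bases, CCACG) 65 bases before the start, and in Creld2 the same element on the other strand 126 bases before it. Herpud1 holds ERSE-II (ATTGG, any 1 base, CCACG) 52 bases before the start and a C/EBP-ATF element (TGATGNAA) on the other strand 112 bases before it. The capitals in Nupr1, Asns and Slc7a11 are C/EBP-ATF elements, a pair of them in Slc7a11. Those in Mcm6 are E2F motifs (TTTGGCGC or TTTCCCGC) and those in Cdk1 are CHR motifs (TTTGAA).

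Over windows of 300 bases (250 before the start and 50 after) and both strands, ERSE stood in 8 of the 18 called ER chaperone genes that had a RefSeq promoter (44.4%), against 0.137% of 27025 genes. Those 8 were Hspa5, Hsp90b1, Dnajc3, Creld2, Calr, Canx, Pdia6 and Ero1b. The C/EBP-ATF element stood in 11 of 27 called genes of the Atf4 list (40.7%) and in 4.51% of all genes, and in 0 of the 18 ER chaperone genes. E2F motifs were in 10 of 22 called replication genes (45.5%, all genes 1.8%), and CHR motifs in 18 of 23 called mitosis genes (78.3%, all genes 20.2%). A search for the UPRE core (TGACGTGG), for CRE (TGACGTCA) and for the core of the hypoxia element (ACGTG, also part of the UPRE core) found them in 0, 0 and 7 of the 18 ER chaperone genes, beside 0.714, 2.03 and 21.8% of all genes. A match describes the letters in the window and is not evidence of binding.

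Genes of protein folding in the ER rose together in DM2 at day 7. Of the 22 genes listed for ER chaperones and secretory folding, 22 rose and 0 fell (all genes: 24.5% and 30.9%). Their median log2 fold change was 1.42, against a median of -0.03 over all genes tested. Hspa5 (ENSMUSG00000026864, chromosome 2, 34771970 to 34777547), the Hsp70 chaperone also known as BiP, stood at 694 and 662 CPM at day 0 and at 3752 and 3096 CPM in DM2 at day 7. Both day 7 libraries lay above both day 0 libraries, and the rise was 5.05-fold (log2 2.34 ± 0.14, adjusted p = 4.72e-08). Its cofactor Sdf2l1 went from 9.14 and 8.04 to 97.5 and 87.9 CPM, 10.8-fold higher. Dnajb9, a J-domain partner of Hspa5, went from 10.9 and 10.3 to 116 and 98.0 CPM (log2 3.34 ± 0.11).

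Other chaperones and folding factors of the list rose as well. The ER Hsp90 protein Hsp90b1 went from 1077 and 1029 to 2452 and 1851 CPM (2.04-fold), and Hyou1, a large Hsp70 relative, from 179.8 and 153 to 626 and 567 CPM. Manf, a secreted factor of stressed ER, stood at 90.1 and 86.0 CPM before and at 466 and 410.2 CPM after, 4.97-fold higher. In each of these 3 genes the lower day 7 library exceeded the higher day 0 library. Calr and Canx are the lectin chaperones of glycoprotein folding. Calr reached 3205 and 2778 CPM from 734 and 680.3 (4.23-fold), while Canx rose 1.61-fold, to 1040.3 and 909 CPM.

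Among the disulfide enzymes, Ero1l, the oxidase that recharges protein disulfide isomerase, rose the most, from 117 and 113 to 1667 and 1586 CPM (14.1-fold, log2 3.82 ± 0.14, adjusted p = 1.21e-09). P4hb, the isomerase that Ero1l recharges, reached 1826 and 1862 CPM from 718 and 642. Pdia4 rose 3.48-fold, Pdia6 2.04-fold and Pdia3 2.02-fold. The sensors and their first effector rose by less than 2-fold: Xbp1, whose mRNA is the substrate of Ern1, rose 1.99-fold, Atf6 1.98-fold, Ern1 1.69-fold and Eif2ak3 1.21-fold. Eif2ak3 lost its call without either day 0 library (adjusted p = 0.0707 and 0.101) or DM2 day 7 replicate 1 (0.19). The table counts reads per gene, so spliced and unspliced Xbp1 cannot be told apart.

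This rise was a feature of day 7 and not of day 2 in the same medium. At day 2 of DM2, 2 of the 22 genes had risen and 9 had fallen against the same day 0 libraries (all genes: 23.5% higher, 26.2% lower). The 9 became 4 or 5 without day 0 replicate 1, day 0 replicate 2 or DM2 day 2 replicate 2. From day 2 to day 7, 21 of the 22 rose (all genes 25.4%). Hspa5 stood at 546 and 497 CPM at day 2, below its day 0 level. Against DM3 at day 7, which has the same cocktail in horse serum, 21 of 22 were higher and 0 lower (all genes: 25.2% and 27.5%). Against DM1 at day 7, 19 were higher and 2 lower (all genes: 26.5% and 31.4%), the 2 becoming 1 without replicate 2 of either group. Hspa5 was at 861 and 883 CPM in DM3 and at 866 and 1196 CPM in DM1 at day 7. A gene is called apart where it was called in the same direction in DM2 day 7 against each of the other 6 groups, comparisons that share the DM2 day 7 libraries. By that rule 19 of the 22 were apart and higher, beside 7.41% of all genes.

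Components that carry misfolded proteins out of the ER for degradation rose as well, 10 of 11 tested with 0 lower (all genes: 24.5% and 30.9%). Of the 11, 7 were apart and higher, beside 7.41% of all genes. Sel1l, the scaffold of the membrane ubiquitin ligase, went from 98.3 and 100.2 to 438 and 392 CPM (4.18-fold). Herpud1, shown above with its ERSE-II, stood at 66.9 and 59.2 CPM at day 0, at 24.6 and 27.3 at day 2 and at 257 and 225 at day 7. It therefore lay below day 0 at day 2 and above it at day 7. The channel component Derl1 rose 3.79-fold and Selenos 2.88-fold, and the conjugating enzyme Ube2j1 did not pass (115 and 114 against 116 and 113 CPM).

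**Figure D2:**
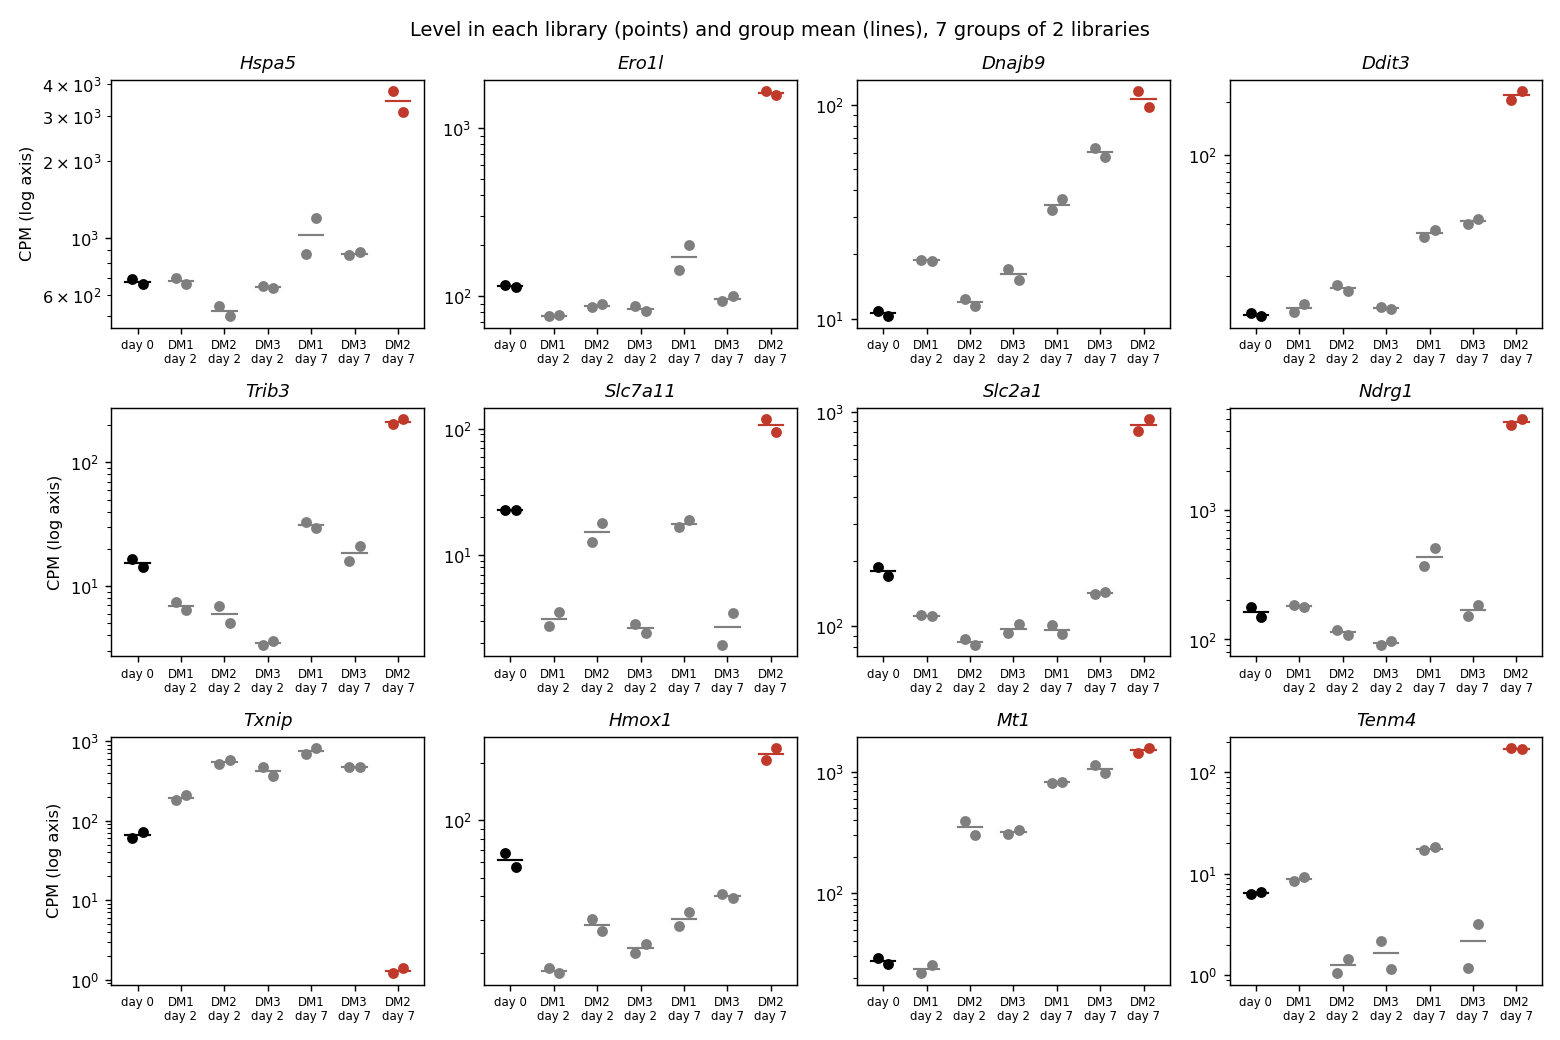
Levels in CPM (log axes) of 12 genes in the 7 groups of 2 libraries, each point a library and each line a group mean, with day 0 in black and DM2 day 7 in red. In 11 of the panels both DM2 day 7 libraries lie above those of every other group, and for Txnip they lie below.

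Of the 37 genes in the Atf4 and amino acid stress list 31 rose and 0 fell (all genes: 24.5% and 30.9%). The median log2 fold change of the list was 1.22. Atf4 itself went from 478 and 426 to 923 and 1027 CPM (2.16-fold). Ddit3 (ENSMUSG00000025408, chromosome 10, 127290774 to 127296288), also called CHOP, a transcription factor of sustained ER stress, stood at 12.2 and 11.7 CPM at day 0, 17.8 and 16.4 at day 2 and 207 and 233 at day 7. Its log2 fold change over day 0 was 4.20 ± 0.10, with an adjusted p of 7.1e-11, and at day 7 DM3 and DM1 had 39.9 and 42.7 and 33.7 and 36.9 CPM. The DM2 day 7 libraries were thus the highest for Ddit3. Atf3 rose from 24.7 and 19.5 to 84.7 and 91.7 CPM, and Atf5, a relative of Atf4, from 91.9 and 84.8 to 292 and 333. Cebpb rose too, to 162 and 173 CPM, but stood as high at day 2 (188 and 142 CPM), and Nupr1, one of the promoters shown, rose 3.18-fold.

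Feedback genes of the pathway rose. Trib3, a pseudokinase that holds back Atf4 and Akt, went from 16.4 and 14.4 to 204 and 222 CPM, after 6.85 and 5.0 CPM at day 2. Ppp1r15a, the phosphatase subunit that reverses the arrest of translation, went from 29.2 and 25.8 to 254 and 264 CPM (9.41-fold). Sesn2, which restrains mTORC1, rose 3.66-fold and Eif4ebp1, a brake on translation, 2.22-fold. Gadd45a and Ddit4 rose against day 0, but their levels at day 2 (297 and 235 and, for Ddit4, 275 and 263 CPM) and in DM3 at day 7 were of a similar or higher size. Vldlr, a lipoprotein receptor, went from 0.907 and 0.852 to 55.9 and 44.4 CPM (56.7-fold).

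Enzymes of serine, asparagine and proline synthesis, of the folate cycle and of transsulfuration were also among the genes that rose. Aldh1l2, a mitochondrial folate enzyme, went from 338 and 337 to 1371 and 1269 CPM (3.92-fold), with 62.2 and 86.7 CPM in DM3 at day 7. Cth, which makes cysteine, stood at 28.8 and 25.9 CPM before and 134 and 128 after, 4.80-fold higher. Mthfd2 rose 2.11-fold and Asns, the asparagine synthetase whose promoter is shown, 1.45-fold. Phgdh and Shmt2 did not pass, at 486 and 555 and, for Shmt2, 517 and 574 CPM at day 7. This list went the other way at day 2 of DM2. Of the 37, 26 were lower than day 0 and 8 higher (all genes: 26.2% and 23.5%). The 8 became 5 without DM2 day 2 replicate 1. From day 2 to day 7, 32 rose and 1 fell (all genes: 25.4% and 29.4%).

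Several amino acid transporters rose. The cystine transporter Slc7a11 stood at 22.6 and 22.7 CPM at day 0 and 118 and 94.5 at day 7, 4.69-fold higher, with 1.94 and 3.45 CPM in DM3. Its partner Slc3a2 rose from 226 and 203 to 637 and 632 CPM and the glycine carrier Slc6a9 from 38.2 and 37.2 to 139.8 and 151. The arginine carrier Slc7a1 was at 30.7 and 39.4 CPM at day 2 and 267 and 269 at day 7, on either side of 180.2 and 181 at day 0. Of the 2 hormones, Fgf21 rose from 0.209 and 0.136 to 4.29 and 4.28 CPM, while Gdf15 did not pass (57.0 and 45.9 against 42.2 and 53.1 CPM). In all, 24 of the 37 were apart and higher, beside 7.41% of all genes.

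Cytosolic aminoacyl-tRNA synthetases, which load tRNA with amino acids, gave 11 higher and 3 lower of 20 (all genes: 24.5% and 30.9%). Their median log2 fold change was 0.28. Sars rose from 353 and 326 to 789 and 878 CPM (2.46-fold) and Wars from 141 and 150.2 to 332 and 363 (2.39-fold). Of the 3 that fell, Kars went from 268 and 253 to 179 and 196 CPM, and without replicate 1 of either group 1 of the 3 passed. Library totals alone gave 6 higher and 9 lower. Between day 2 and day 7 the direction was more uniform, 17 of 20 higher and 1 lower (all genes: 25.4% and 29.4%). The 1 became 0 without DM2 day 7 replicate 2 or DM2 day 2 replicate 1.

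Glucose uptake, several glycolytic enzymes and other targets of the hypoxia-inducible factor (HIF) were higher, 24 of 33 tested with 2 lower (all genes: 24.5% and 30.9%). Slc2a1, the basal glucose transporter, went from 189 and 171 to 814 and 919.6 CPM, and hexokinase Hk2, which traps glucose in the cell, from 133 and 128 to 731 and 807 CPM (5.89-fold). Both were lower at day 2, at 86.9 and 81.6 CPM for Slc2a1 and 104 and 113 for Hk2. Of 16 glycolytic genes 10 rose and 1 fell, among them Pfkl (2.40-fold), Gpi1 (2.32-fold) and Aldoa, which reached 2360.0 and 2724 CPM. Pfkfb4, a regulator of phosphofructokinase, fell from 28.6 and 27.8 to 9.75 and 9.03 CPM, and Ldha did not pass (1416 and 1236 against 1367 and 1536 CPM). For Gapdh and Eno1 the day 0 libraries disagreed, 2638 and 546 CPM for Gapdh and 1703 and 805 for Eno1, and neither passed. Both genes have many processed pseudogenes that can share their reads, so their values are uncertain.

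Of 13 other HIF targets 12 rose and 0 fell (all genes: 24.5% and 30.9%), with a median log2 fold change of 2.29. Ndrg1, a stress-induced gene of differentiation, went from 179 and 149 to 4500.2 and 4945 CPM (28.8-fold, adjusted p = 9.15e-10), with 119 and 108 CPM at day 2. At day 7 it stood at 151 and 184 CPM in DM3 and 368 and 503 in DM1, so the DM2 day 7 libraries lay above both. Bnip3, a mitophagy receptor, rose from 74.5 and 72.3 to 448 and 446 CPM and P4ha2, a collagen prolyl hydroxylase, from 64.1 and 63.0 to 329 and 343. Egln3, the oxygen sensor that marks HIF for destruction, went from 41.8 and 40.5 to 222 and 257 CPM, close to the level in DM3 (188 and 181). The carbonic anhydrase Car9 rose from 2.51 and 1.53 to 112 and 117 CPM, and Vegfa 1.65-fold. Txnip, a glucose-induced inhibitor of glucose uptake, went the other way, from 60.2 and 71.4 CPM to 1.20 and 1.40 at day 7, after 517 and 578 at day 2.

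Cell cycle genes fell, the replication genes mainly by day 2 and the mitosis genes mainly between day 2 and day 7. Of 32 replication genes 28 fell and 0 rose at day 7 against day 0 (median log2 fold change -1.43), and of 28 mitosis genes 28 fell (median -1.84), beside 30.9% of all genes. Mcm3, a subunit of the replicative helicase, stood at 176 and 167 CPM at day 0, 25.6 and 24.8 at day 2 and 61.8 and 62.6 at day 7. It fell 2.75-fold by day 7 yet was 2.47-fold higher than at day 2. Mcm6, with the E2F motifs shown, had 232 and 221 CPM at day 0 and 82.8 and 86.4 at day 7. Cdc6, which loads the helicase, had 47.1 and 44.4, 6.17 and 4.50 and 15.3 and 14.4 CPM at day 0, day 2 and day 7. Fen1, a nuclease of lagging-strand synthesis, followed with 81.7 and 69.4, 18 and 12.8 and 35.8 and 37.4 CPM.

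From day 2 to day 7, 17 of the 32 replication genes rose and 5 fell (11 and 9 under library totals alone), while 28 of 28 mitosis genes fell (all genes: 25.4% higher, 29.4% lower). Leaving out any 1 of these 4 libraries took the 5 to between 1 and 3. Mki67, the proliferation antigen, had 585 and 605 CPM at day 0, 199 and 288 at day 2 and 106 and 91.6 at day 7. Ccnb2, a mitotic cyclin, was at 92.1 and 89.5 CPM, then 128 and 113 and then 28 and 29.5. Cdk1, whose promoter is shown, fell 2.19-fold, to 105 and 108 CPM, and Plk1, a mitotic kinase, 4.25-fold. Each of these 4 mitosis genes was lower at day 7 than at day 2. Tk1 (thymidine kinase) fell 7.15-fold, from 114 and 99.3 to 14.6 and 15.3 CPM, and Rrm2, a ribonucleotide reductase subunit, did not pass (489 and 509 against 413 and 437 CPM).

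**Figure D3:**
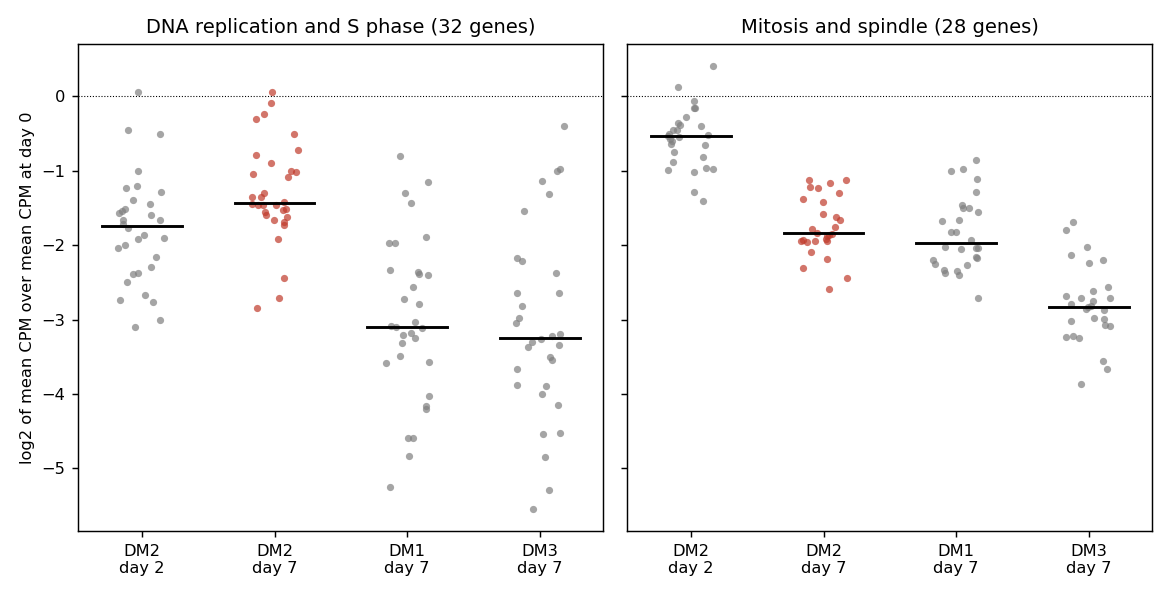
Log2 of mean CPM over the day 0 mean (vertical axis) for 32 replication genes (left) and 28 mitosis genes (right) in DM2 at day 2 and day 7 and in DM1 and DM3 at day 7, each point a gene and each bar the median, with DM2 day 7 in red. Replication genes lie lower at day 2 of DM2 (median log2 fold change -1.75) than at day 7 (-1.43), and mitosis genes the other way (-0.54 and -1.84).

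At day 7 both lists were above DM3, and the replication list was also above DM1. Against DM3 31 of 32 replication genes and 27 of 28 mitosis genes were higher in DM2, with 0 lower in either (all genes: 25.2% and 27.5%). Against DM1 31 replication genes were higher and 1 lower, while mitosis genes went both ways, 12 higher and 7 lower of 28 (median log2 fold change 0.18). The shares of all genes against DM1 were 26.5% higher and 31.4% lower. Mcm3 stood at 7.02 and 7.72 CPM in DM3 and 7.30 and 4.72 in DM1. The cyclin kinase inhibitor Cdkn1a rose 2.12-fold, to 357 and 420.1 CPM, below its 728 and 666 CPM in DM3. D cyclins, which start the cycle, went both ways: Ccnd1 fell from 385 and 399 to 109.6 and 125 CPM and Ccnd2 rose from 118 and 124 to 503 and 481. Of 23 tested CDK inhibitors, D cyclins and p53 targets 8 rose and 7 fell against day 0 (all genes: 24.5% and 30.9%). Mdm2 and Bax, targets of p53, did not pass, and Trp53inp1 rose 4.74-fold.

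**Figure D4:**
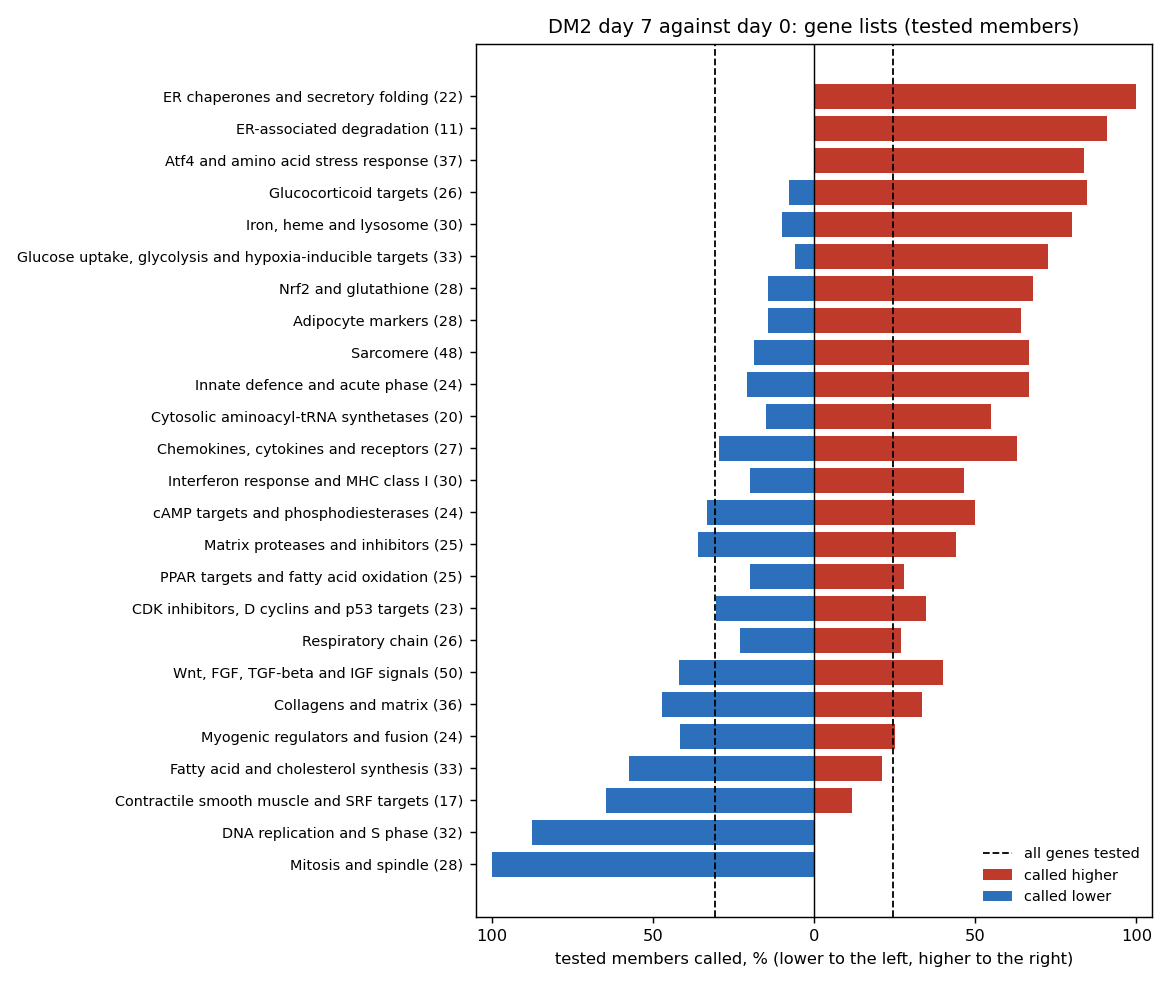
Percent of tested members called lower (blue, to the left) and higher (red, to the right) in DM2 day 7 against day 0 for each of 25 gene lists, number tested in brackets, with dashed lines at the share of all genes tested (30.9% lower, 24.5% higher). The ER chaperone list is higher in all 22 members and the mitosis list lower in all 28.

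Most sarcomere genes rose, while myogenic regulators went both ways. Myod1, the master regulator of the myoblast, fell from 146 and 128 to 16.1 and 20.4 CPM (7.50-fold, adjusted p = 1.05e-07). Myf5, also among the regulators, rose 2.88-fold, from 46.1 and 42.0 to 131 and 123 CPM, after 301 and 277 CPM at day 2. Myog, which follows Myod1 in differentiation, rose from 1.74 and 1.87 to 32.0 and 32.2 CPM. In DM3 Myog reached 1110.0 and 995 CPM, 32.8-fold above DM2. Of 10 tested regulators 3 rose and 4 fell, of 8 fusion genes 2 rose and 2 fell, and of 6 inhibitors 1 rose and 4 fell. Over all genes 24.5% rose and 30.9% fell. Tmem8c, the fusion protein myomaker, rose from 2.23 and 2.04 to 31.1 and 32.8 CPM and Gm7325, myomixer, from 0.105 and 0.170 to 5.76 and 6.38. The cell adhesion molecule Jam2 fell 7.66-fold and the cofactor Six4 2.66-fold. The inhibitors Id1, Id2 and Id3 fell, Id3 from 99.8 and 85.1 to 17.8 and 18.9 CPM.

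In the sarcomere list 32 of 48 tested genes rose and 9 fell (median log2 fold change 3.44), beside 24.5% and 30.9% of all genes. Skeletal actin Acta1 went from 3.49 and 3.54 to 243 and 247 CPM (69.5-fold), and embryonic myosin Myh3 from 0.628 and 0.511 to 86.6 and 74.6. Both were well below DM3, where Acta1 stood at 13398 and 12529 CPM and Myh3 at 3128 and 3273. Against DM3 at day 7, 43 of 48 were lower and 1 higher (all genes: 27.5% and 25.2%). Against DM1, 32 were lower and 4 higher (all genes: 31.4% and 26.5%). The 4 became 1 without DM1 replicate 2 and 2 without DM2 replicate 2. Some members already expressed by growing cells fell: Des, the intermediate filament of muscle, from 931 and 796 to 427 and 511 CPM, the giant spring protein Ttn from 159 and 198 to 82.8 and 64.5, and the enolase Eno3 from 354 and 314 to 44.5 and 47.8.

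Some adipocyte genes rose, several of them from low levels at day 0. Of 41 listed adipocyte genes 28 passed the low-count filter, and 18 of these rose and 4 fell (all genes: 24.5% and 30.9%). The 8 defining adipocyte markers summed to 3.56 and 2.25 CPM at day 0, 29.3 and 24.6 at day 2 and 16.7 and 13.4 at day 7, with 5 of them, Adipoq, Lep, Retn, Cfd and Cidec, under the filter. Most of the sum at day 0 and day 2 was the transcription factor Cebpa. It stood at 3.04 and 1.87, 24.3 and 20.7 and 7.34 and 5.49 CPM at day 0, day 2 and day 7. Fabp4, the fatty acid carrier, rose from 0.488 and 0.341 to 7.38 and 6.11 CPM, and Plin1, the coat protein of the fat droplet, from 0.0349 and 0.0341 to 0.979 and 0.856. Pparg, the receptor for rosiglitazone, fell from 24.3 and 22.2 to 9.67 and 12.3 CPM. Lpl, the lipase that takes up circulating fat, rose from 46.9 and 51.0 to 415 and 349.7 CPM (7.81-fold), Plin2, a droplet coat of many cell types, from 229.6 and 203 to 558 and 608, and Ppargc1a, a coactivator of mitochondrial genes, from 1.61 and 1.33 to 25.8 and 23.3. Both Lpl and Ppargc1a were higher than in any other group.

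Fatty acid oxidation did not move as a whole, with 7 higher and 5 lower of 25 tested PPAR targets and a median of 0.01 (6 and 11 under library totals alone). The shares of all genes were 24.5% higher and 30.9% lower. Acot2, a mitochondrial thioesterase, rose from 3.77 and 3.54 to 63.2 and 63.1 CPM, although its near copy Acot1 can share its reads. Pdk4, which closes pyruvate oxidation, fell from 44.9 and 41.8 to 12.8 and 11.2 CPM after 113 and 122 at day 2. Synthesis of fatty acids and cholesterol was lower, 19 of 33 tested with 7 higher (24 and 7 under library totals alone). Among the 16 cholesterol enzymes 11 fell and 3 rose. Hmgcs1, an early enzyme of the pathway, fell from 136 and 146 to 60.9 and 50.9 CPM. Abca1, which exports cholesterol, rose from 1.22 and 1.02 to 38.6 and 31.1 CPM. Scd1 and Scd2, which desaturate fatty acids, rose 1.48-fold and 1.63-fold.

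Genes known to answer to glucocorticoids were higher, 22 of 26 with 2 lower (0 or 1 without any 1 of the 4 libraries) and a median log2 fold change of 2.08. The metallothionein Mt2 went from 24.7 and 23.3 to 1959 and 2016 CPM (82.9-fold) and Mt1 from 29.1 and 25.8 to 1437 and 1578, with 523 and 443 CPM for Mt2 at day 2. Fkbp5, a brake on the receptor, had 55.7 and 52.9, 272 and 271 and 199.7 and 201 CPM at day 0, day 2 and day 7, and Tsc22d3 had 38.1 and 33.4, 595 and 560.1 and 232 and 271. These 2 genes were thus higher at day 2 than at day 7. Zbtb16, a zinc-finger repressor, had 1 count at day 0, in replicate 2, and reached 11.9 and 10.3 CPM, 644-fold (95% counting interval 115 to 25469). Hsd11b1, which makes active glucocorticoid, rose from 0.279 and 0.273 to 43.6 and 43.1 CPM, but DM1, without dexamethasone, had 139.6 and 131 CPM. The list as a whole did not stand above DM1 at day 7, with 10 of the 26 higher and 13 lower (all genes: 26.5% and 31.4%). Compared with DM3 at day 7, 9 were higher and 12 lower (all genes: 25.2% and 27.5%). Against day 0 the shares of all genes were 24.5% and 30.9%.

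Genes of the cAMP response and the phosphodiesterases, which IBMX blocks, split 12 higher and 8 lower of 24 (5 lower without day 0 replicate 1). Beside these counts stood 24.5% higher and 30.9% lower of all genes. Rgs2, a brake on G proteins, went from 0.314 and 0.238 to 76.9 and 64.5 CPM and Pde4b, a cAMP phosphodiesterase, from 53 and 52.5 to 213 and 183, as against 178 and 217 at day 2. Pde1a rose from 0.593 and 0.238 to 23.3 and 16.0 CPM and was apart (46.9-fold, and 80.6-fold without day 0 replicate 1). The early response genes Nr4a1 and Nr4a2 fell, Nr4a2 from 17.0 and 20.0 to 8.36 and 7.43 CPM. Pde2a did not pass, and its libraries disagreed at day 0 (23.6 and 4.80 CPM) and at day 7 (2.67 and 8.05). Without day 0 replicate 2 it fell (adjusted p = 0.0178).

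Matrix genes changed in both directions, some by a large amount, with 17 of 36 tested lower and 12 higher (all genes: 30.9% and 24.5%). Col8a1 (ENSMUSG00000068196, chromosome 16, 57624258 to 57754737), a short-chain network collagen, dropped from 77.8 and 81.4 CPM at day 0 to 12.1 and 11.1 at day 2 and 0.376 and 0.389 at day 7. Its log2 fold change at day 7 was -7.68 ± 0.18. DM1 at day 7 kept 44.5 and 44.3 CPM, while DM3 at day 7 was also low, at 1.44 and 1.07 CPM. Tnc, a matrix glycoprotein of repair, fell from 1124 and 1076 to 29.2 and 33.1 CPM (35.3-fold), Postn from 12.1 and 12.1 to 0.376 and 0.428, and Thbs1 from 631 and 660.3 to 83.7 and 88.0. The fibrillar collagens Col1a1, Col1a2, Col5a1 and Col5a2 fell, Col1a2 from 1177 and 1146 to 267 and 261 CPM. In DM1 at day 7 Col1a2 stood at 2095 and 1845 CPM, and 28 of the 36 were lower in DM2 than in DM1 (all genes 31.4%). Rises were in Vcan, a large proteoglycan (293 and 310.3 to 1492 and 1242 CPM), Col6a1 and Col6a2, Dcn (0.628 and 0.647 to 22.5 and 22.6 CPM) and Prg4, the joint lubricant (1.22 and 1.70 to 222 and 178 CPM). Prg4 was higher at day 2, at 264 and 346 CPM. The 6 markers of fibro-adipogenic progenitors, a fibroblast-like muscle cell, summed to 331 and 333 CPM at day 0 and 743 and 771 at day 7, with 3 higher. Most of the sum was Ly6a, at 281 and 286 and then 662 and 691 CPM. Cd34 and Pi16 also rose, Pi16 to 2.45 and 1.87 CPM. Pdgfra did not pass (17.7 and 17.2 against 16.4 and 14.2 CPM), and Thy1, with 0 counts, and Dpp4 were under the filter. The part of such cells in these matrix results was not tested.

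Proteases that cut the matrix and their inhibitors split 11 higher and 9 lower of 25 (all genes: 24.5% and 30.9%). Mmp13, a collagenase, went from 0.174 and 0.204 to 38.2 and 26.2 CPM with 0.507 and 0 in DM3 and 0.0356 and 0.167 in DM1, and Mmp3, stromelysin, from 0.0698 and 0.0681 to 16.4 and 16.0. Mmp12, with 0 counts in both day 0 libraries, was at 1.92 and 1.52 CPM, at least 16.6-fold higher. Mmp2, a gelatinase, went from 51.5 and 50.6 to 499 and 431 CPM. The serine protease inhibitor Serpine2 rose from 14.2 and 12.1 to 117 and 113 CPM. Timp1, an inhibitor of metalloproteases, fell 2.80-fold. Of 17 tested targets of SRF and YAP, factors that answer to actin tension, 11 fell and 2 rose (1 without replicate 2 of either group), with Cyr61 going from 277 and 266 to 60.4 and 79.2 CPM, Ctgf from 445 and 454 to 106 and 138 and Tagln from 36.1 and 30.3 to 4.93 and 6.19. The 6 smooth muscle markers summed to 554 and 502 CPM at day 0 and 671 and 693 at day 7, with 1 higher and 2 lower. Most of the sum was smooth muscle actin Acta2, at 486 and 445 and then 645 and 663 CPM, whose call was lost without day 0 replicate 2 (adjusted p = 0.0827) or DM2 day 7 replicate 2 (0.0589). The other called markers, Tagln and Cnn1, fell, Cnn1 from 4.15 and 3.75 to 0.376 and 0.156 CPM.

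Signals of the Wnt, FGF, TGF-beta and IGF families gave 20 higher and 21 lower of 50 (all genes: 24.5% and 30.9%). Fgf2, a growth factor that keeps myoblasts cycling, fell 21.9-fold, from 14.2 and 17.0 to 0.979 and 0.428 CPM. Without DM2 day 7 replicate 1 the fold for Fgf2 was 36. Dkk2, a Wnt antagonist, fell from 21.3 and 19.6 to 0.979 and 0.545 CPM, and Ltbp2, a partner of latent TGF-beta, from 122 and 114 to 4.63 and 5.25. The TGF-beta isoforms Tgfb1 and Tgfb3 fell, Tgfb3 from 51.2 and 47.3 to 22.1 and 21.9 CPM. In the IGF group Igf2 rose from 0.977 and 0.954 to 15.6 and 15.1 CPM, below its 169 and 154 CPM in DM3, and Irs1, an adaptor of the insulin receptor, fell from 92.8 and 91.0 to 35.7 and 30.8 as Irs2 rose from 14.7 and 14.3 to 51.3 and 52.8. Binding proteins moved both ways. Igfbp5 went from 965 and 993 to 4863 and 4972 CPM and Igfbp2 from 997 and 817 to 392 and 434. Igfbp3 rose 67.4-fold (106-fold without day 0 replicate 1), from 0.593 and 0.273 to 30.6 and 28.2 CPM, and was apart.

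Genes of innate defence and the acute phase were higher, 16 of 24 tested with 5 lower (all genes: 24.5% and 30.9%), and 11 of 35 listed did not pass the filter. S100a8 (ENSMUSG00000056054, chromosome 3, 90668978 to 90670035), a calcium-binding protein best known from neutrophils, had 1 count over both day 0 libraries, 0.801 and 0.802 CPM at day 2 and 189 and 149 CPM at day 7. In DM3 and DM1 at day 7 it was at 5.45 and 3.82 and 0.249 and 0.0835 CPM. Its partner S100a9 was at 0.151 and 0.0389 CPM in DM2 at day 7. Of the 9 neutrophil markers 2 rose, 7 were under the filter and 5 had 0 counts in both DM2 day 7 libraries, and their sum of 190 and 150 CPM was almost all S100a8. Haptoglobin Hp had 0 counts at day 0 and reached 12.6 and 11.0 CPM (at least 114-fold), with 16.0 and 13.9 in DM3 at day 7. The complement protein C3 rose from 0.105 and 0.0681 to 6.25 and 6.07 CPM. Orm1, an acute-phase protein with a close copy in Orm2, went from 1 count to 36.7 and 35.1 CPM. Nos2, the inducible nitric oxide synthase, had 0.907 and 0.647, 0.160 and 0.0382 and 28.9 and 37.7 CPM at day 0, day 2 and day 7. Ptgs2, which makes prostaglandins, had 44.6 and 38.9, 14.2 and 17.3 and 113 and 95.1, and its constitutive relative Ptgs1 fell from 443 and 424 to 188 and 194.

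Of 8 tested genes of the NF-kB pathway 4 fell and 1 rose (all genes: 30.9% and 24.5%). Nfkb1 and Nfkb2 fell, Traf1 dropped from 14.1 and 11.9 to 0.113 and 0.0778 CPM, and Tnfaip3, a brake on the pathway, from 93.5 and 86.1 to 15.6 and 16.1. Nfkbia, the inhibitor that holds NF-kB in the cytoplasm, did not pass. The member that rose was the cytokine Il1b, from 0.0349 and 0 to 0.113 and 0.311 CPM, and it lost its call without day 0 replicate 2 (adjusted p = 0.104) or DM2 day 7 replicate 2 (0.141). Chemokines, cytokines and their receptors gave 17 higher and 8 lower of 27 (5 lower without DM2 day 7 replicate 2). Il33, an alarmin, rose from 13.8 and 13 to 241 and 275 CPM, a level matched in DM3 (260.3 and 239), while Tnfrsf9, a costimulatory receptor, rose from 0.663 and 0.852 to 22.5 and 21.7 and was apart. The neutrophil attractants Cxcl1 and Cxcl5 rose, Cxcl5 from 1.57 and 1.64 to 17.1 and 12.3 CPM, and Osmr, a receptor for oncostatin M, from 14.3 and 14.8 to 88.6 and 65.3. The checkpoint receptor Pdcd1 had 0 counts at day 0 and 18.9 and 15.8 CPM at day 7, with 0 and 0.123 in DM3 and 0 and 0 in DM1. Of 6 T cell markers Pdcd1 was the one called, 4 were under the filter and 2 had 0 counts in both libraries, in a sum of 19.5 and 16.3 CPM. The 8 macrophage markers summed to 12.8 and 13.9 CPM at day 7 against 10.5 and 8.72 at day 0, with 4 of them at 0 counts. Of these markers Cd68, a lysosomal membrane protein, rose, from 0.837 and 1.29 to 6.17 and 6.77 CPM, and Cd14 did not pass.

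MHC class I genes, which present antigen, rose. Of 14 class I and processing genes 12 rose and 1 fell, and of 16 tested interferon response genes 2 rose and 5 fell (all genes: 24.5% and 30.9%). B2m, the light chain shared by class I molecules, went from 149 and 153 to 655 and 744 CPM (4.63-fold), and Nlrc5, the activator of class I genes, from 5.02 and 5.38 to 27.2 and 27.4 (5.24-fold). H2-K1 and H2-D1 rose to 676 and 753 CPM and, for H2-D1, 400.4 and 454, but their day 0 libraries differed (61.8 and 131 and, for H2-D1, 56.4 and 112), and reads of such similar genes can be shared. Without day 0 replicate 1 the H2-D1 call was lost (adjusted p = 0.0761), and without day 0 replicate 2 H2-K1 rose 11.5-fold in place of 7.40-fold. Ifit2 and Ddx58, antiviral genes, fell, Ifit2 from 14.4 and 16.3 to 1.81 and 1.44 CPM. Isg15 did not pass at 0.488 and 0.170 against 0.452 and 0.545 CPM.

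Lysosomal genes rose, 17 of 18 tested with 1 lower, within an iron, heme and lysosome list of 24 higher and 3 lower of 30 (all genes: 24.5% and 30.9%). Cathepsin Ctsb went from 513 and 470.1 to 2153 and 2202 CPM (4.43-fold), cathepsin Ctsl from 522 and 472 to 1750.4 and 1678 and the membrane protein Lamp1 from 474 and 439 to 1129 and 1120.0. Gpnmb, a glycoprotein of stressed lysosomes, rose from 1.85 and 1.43 to 30.1 and 27.4 CPM, and Sqstm1, the autophagy receptor p62, from 527 and 453 to 1764 and 1949.5. Tfeb, the regulator that switches lysosomal genes on, was the one that fell, from 11.4 and 9.30 to 2.48 and 2.76 CPM. In iron handling the ferritin heavy chain Fth1 rose from 1831 and 1628 to 5783 and 6513 CPM, while the transferrin receptor Tfrc fell from 112 and 108 to 50.7 and 39.9, and Ftl1 did not pass. Heme oxygenase Hmox1 had 67.6 and 56.5, 30.2 and 26.0 and 208 and 241 CPM at day 0, day 2 and day 7.

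Of 28 genes of Nrf2 and glutathione metabolism 19 rose and 4 fell (14 and 6 under library totals alone), beside 24.5% and 30.9% of all genes. Nfe2l2, which encodes Nrf2, rose from 173 and 152 to 495 and 494 CPM, and the glutathione transferase Gsta4 from 149.5 and 141 to 772 and 854 (5.60-fold). Gsta1, Gsta2 and Gsta3 rose too, although these paralogs can share reads. Nqo1 and Gclm, textbook targets of Nrf2, did not pass, at 35.1 and 36.0 CPM for Nqo1 and 88.8 and 82.4 for Gclm, and Gpx1 and G6pdx fell. In the respiratory chain list 7 rose and 6 fell (7 and 9 under library totals alone, and 2 lower without replicate 1 of either group). Of 9 mitochondrially encoded genes 5 rose and 0 fell, and of 17 nuclear ones 2 rose and 6 fell (all genes: 24.5% and 30.9%). Mitochondrial mt-Nd4 went from 1785 and 1802 to 3983 and 3708 CPM and nuclear Uqcrc1 from 207 and 186 to 125 and 141. Mitochondrial RNA took 2.51 and 2.63% of counts at day 0 and 3.8 and 3.37% at day 7.

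The largest changes of DM2 at day 7 against day 0, beyond the lists, were in genes near 0 in one of the groups. Car6, a secreted carbonic anhydrase, went from 0.0698 and 0.102 to 172 and 182 CPM. Nrip2, Gfral, the receptor of Gdf15, and Ostn, a muscle and bone peptide, had 0 counts at day 0 and reached 7.94 and 8.17, 7.41 and 6.65 and 7.64 and 5.64 CPM. Their rises were at least 77.9-fold, at least 68.0-fold and at least 64.2-fold. Ccdc73 fell 90.6-fold (45.8-fold without DM2 day 7 replicate 1), from 9.94 and 8.31 to 0 and 0.195 CPM. Scara5, a ferritin receptor, had 0 counts at day 0 and 34.7 and 33.5 CPM in DM2 at day 7, beside 0.761 and 0.945 in DM3 and 0.0356 and 0.209 in DM1. H2-M10.1, one of a cluster of similar class I genes, also had 0 counts at day 0 and stood at 82.3 and 69.4 CPM. Ceacam10, of another family of close paralogs, was at 20.2 and 20.6 CPM without a count at day 0, and at 13.8 and 12 in DM3. Among the falls, the growth factor Fgf5 had 18.1 and 17.8, 2.04 and 2.25 and 0.188 and 0.156 CPM at day 0, day 2 and day 7, and the Wnt ligand Wnt10b had 14.9 and 15.9, 5.45 and 7.02 and 0.151 and 0.156. The protease inhibitor Serpinb2 went from 14.7 and 14.3 to 0.0753 and 0.156 CPM and Glipr1 from 10.9 and 9.54 to 0.151 and 0.156. Falls also included 1700012B09Rik, Prl2c3, a prolactin family member with close copies (222 and 199.9 to 5.38 and 2.72 CPM), and Apol9b, of a pair of near-identical genes (18.4 and 16.1 to 0.414 and 0.272). Ccdc73, Prl2c3 and Apol9b were similarly low in DM3 at day 7, at 0.127 and 0.0821, 3.89 and 4.27 and 0.380 and 0.411 CPM. Gm5537, a processed pseudogene, had 18.7 and 42.0 CPM at day 0 and 0 counts in DM2 at day 7, and its reads can be shared with its parent gene.

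Against each of the other 6 groups, 1184 genes were higher (7.41% of those tested) and 1441 lower (9.02%) in DM2 at day 7, 354 and 478 of them by at least 2-fold in each comparison. Among the 10 that stood furthest above, Avil, an actin-severing relative of villin, had 269.9 and 279 CPM in DM2 at day 7 and 0.837 and 0.920, 4.09 and 2.56, 0.550 and 0.616 and 1.14 and 0.835 CPM at day 0 and in DM2 day 2, DM3 day 7 and DM1 day 7. Taf7l, a TBP-associated factor, had 11.8 and 10.5 CPM against 2 counts over both day 0 libraries. Acox2, a peroxisomal oxidase of bile acid synthesis, had 5.65 and 7.35 CPM and 0 counts at day 0. Try5, a trypsin with many paralogs, had 29.7 and 29.5 CPM, and 6 of 8 pancreatic acinar markers had 0 counts in both libraries. Among the 10 furthest below, the erythropoietin receptor Epor had 0.452 and 0.389 CPM against 6.94 and 5.38 at day 0, 6.93 and 5.50 in DM3 and 8.41 and 7.55 in DM1. Jup, plakoglobin, a junction protein, had 7.49 and 9.84 CPM against 124 and 109.6 at day 0. Sorbs2, a cytoskeletal adaptor, had 28.6 and 28.6 CPM against 266 and 273, and S1pr3, a receptor for sphingosine phosphate, 1.99 and 2.18 against 18.5 and 18.2. Serinc2, Ube2l6, Stard10, Col4a5, Txnip and the pseudogene Gm5537 completed the 10 furthest below. The 7 epithelial markers summed to 13.7 and 17.3 CPM at day 7 against 43.3 and 35 at day 0.

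**Figure D5:**
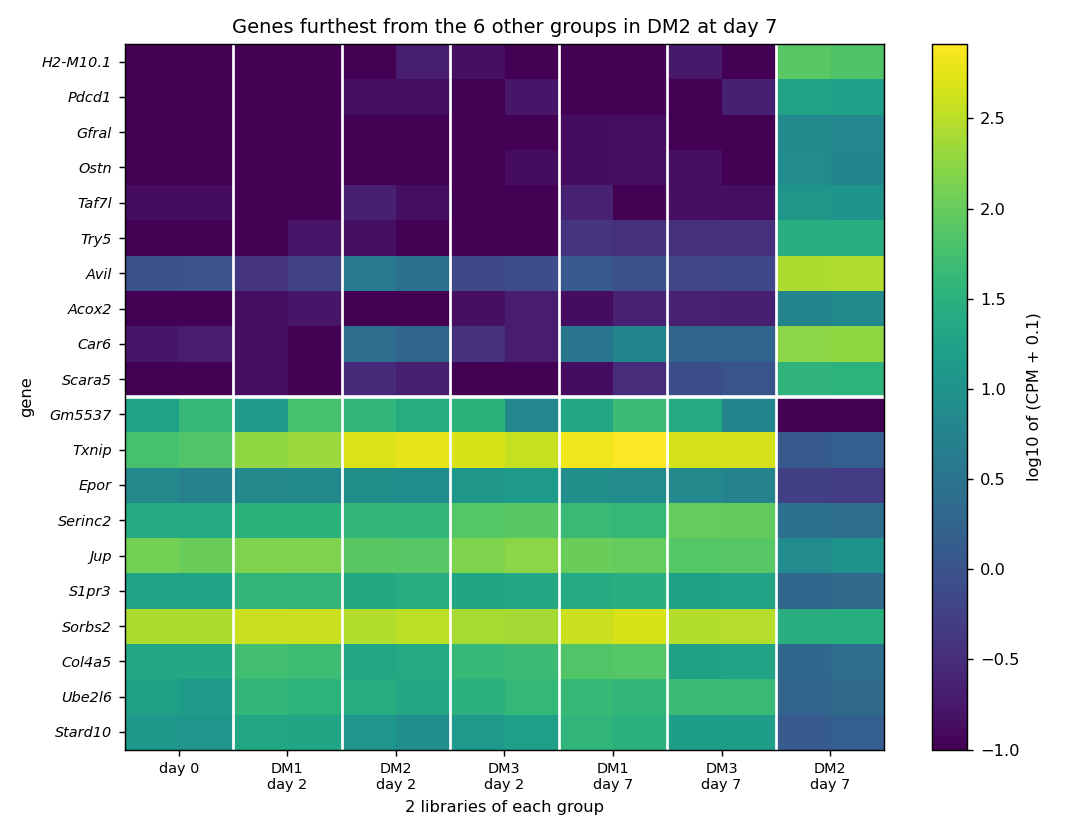
Log10 of CPM with a small constant added (colour scale) in both libraries of each of the 7 groups (columns) for the 10 genes furthest above (upper rows) and the 10 furthest below (lower rows) every other group in DM2 at day 7. The rightmost group, DM2 day 7, stands out in each row, for example Avil at 269.9 and 279 CPM and Epor at 0.452 and 0.389.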

How the data were processed

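Poly(A) RNA of 14 libraries was sequenced strand-specifically with single-end reads, per the labels' protocols. Per the submitters' processing notes reads were aligned with STAR 2.5.1b to GRCm38.p5 with Gencode vM12 and counted with RSEM 1.2.31. For 49671 genes the authors deposited expected counts from RSEM, which are not normalized and need not be whole, since reads that fit several genes are divided among them; 20610 genes were at 0 throughout. Total expected counts per library ran from 21907617 to 29784885, and floors of 3 counts lay between 0.102 and 0.117 CPM in the 4 libraries compared. Gene coordinates are those of Gencode vM21 on GRCm38.

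After rounding, edgeR 4.0.16 (with limma 3.58.1, in R 4.3.3) was run with filterByExpr by group, TMM scaling, 1 model for all 7 groups (7 residual degrees of freedom), the robust quasi-likelihood F test and Benjamini-Hochberg adjustment over 15973 genes, called at an adjusted p under 0.05. The SE was obtained as the size of the log2 fold change over the square root of the F statistic. The procedure was tested on simulated data in which few genes differed. That simulation does not test the scaling where 55.4% of genes were called. Folds from 0 counts are lower bounds against the floor of 3 counts per library, and ratios from 1 to 3 counts carry an exact 95% counting interval. Bounds and intervals cover counting error only, as reads were amplified without molecular identifiers.

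Named genes were, by rule, the 12 largest rises and 12 largest falls with at least 5 CPM in the higher group, list members with the largest changes or that define their list, the 10 genes with the largest difference between day 2 and day 7 of DM2 among 135 called in opposite directions against day 0, and the 10 highest and 10 lowest of the genes apart from every other group. The members, the 25 gene lists and the marker lists were chosen with earlier results of these data known. Alternatives were library totals alone, other size factors, DESeq2 1.42.0, other count filters, pseudogenes removed, only the 2 groups compared, a replicate block and each library left out. Promoters were RefSeq windows on GRCm38.p6. All columns of values in the table were matched to their libraries by name. Some genes within the lists are counted but not reported by name.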

Additional observations from a re-analysis of the deposited data

Results flagged for a closer look

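The change of DM2 against day 0 was called in opposite directions at day 2 and at day 7, each by at least 2-fold, in 135 genes, 95 higher and then lower and 40 lower and then higher. The 10 described here had the largest difference between the days among those with at least 5 CPM in both libraries of some group, and in each the difference passed the quasi-likelihood test of edgeR after Benjamini-Hochberg adjustment. Both changes share the day 0 libraries. Txnip, an inhibitor of glucose uptake, went from 517 and 578 CPM at day 2 to 1.20 and 1.40 at day 7 (log2 difference -8.71 ± 0.21, adjusted p = 3.62e-10). Nos2, the inducible nitric oxide synthase, went from 0.160 and 0.0382 to 28.9 and 37.7 CPM (log2 8.34 ± 0.62), with a range of 7.66 to 9.6 over the alternatives tried. Tenm4, a teneurin adhesion protein, had 6.28 and 6.61 CPM at day 0, 1.04 and 1.45 at day 2 and 174 and 169 at day 7 (log2 7.09 ± 0.42). In DM3 and DM1 at day 7 Tenm4 stood at 1.18 and 3.20 and 17.0 and 18.2 CPM.

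The orphan receptor Gpr35 rose from 0.0801 and 0.153 to 9.15 and 8.52 CPM between the days (log2 6.18 ± 0.40, 5.82 to 6.7 over the alternatives). Slc24a3, a sodium-calcium exchanger, rose from 0.321 and 0.229 to 12.9 and 12.4 CPM (log2 5.50 ± 0.39). Apln, the peptide apelin, had 9.87 and 7.32 CPM at day 0, 0.841 and 1.18 at day 2 and 42.0 and 45.1 at day 7 (log2 5.42 ± 0.42). Trib3 showed the same course of a lower day 2 and a higher day 7 (log2 5.17 ± 0.18). Nov, a matricellular protein, rose from 2 counts in each day 2 library to 2.90 and 2.68 CPM (log2 5.07 ± 0.58). It reached 5 CPM only in DM1 at day 2 (5.67 and 5.25 CPM). Atp2a3, a calcium pump of the ER, rose from 0.240 and 0.229 to 6.59 and 7.74 CPM (log2 4.90 ± 0.29), and stood at 6.13 and 6.90 CPM in DM3 at day 7. Gm45457, a gene model of the type TEC, went the other way, from 4.81 and 7.14 to 0.0753 and 0.156 CPM (log2 -5.64 ± 0.52, -6.22 to -5.22 over the alternatives).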

How the results depend on the processing

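Over 12 numbers of genes called (higher and lower in DM2 day 7 against day 0, DM2 day 2, DM3 day 7 and DM1 day 7, at least 2-fold against day 0, and apart from every other group) and 164 values under other settings, 162 lay within 1.5 times the reported number. The exceptions came with library totals alone, which gave 2665 genes higher than at day 2 and 2763 higher than in DM1 at day 7, beside 4063 and 4227. That scaling shifts the median log2 fold change of all genes to -0.256 against day 0, so directions of small changes hold only relative to the scaling used. Among 50 list counts 575 of 600 values lay within 1.5 times. Of 2898 values for named genes 2873 kept their direction and side of the threshold, 13 lost and 12 gained a call and 0 reversed. Without 1 library, genes higher than day 0 ran from 3226 to 3410 and genes lower from 4096 to 4483. Replicate numbers were not taken as pairing: deviations of same-numbered libraries correlated with those of day 0 at 0.00479 in DM2 day 7 and from -0.629 (DM3 day 2) to 0.518 (DM1 day 2) over the other groups. A replicate block gave 3867 higher and 4891 lower. Each group has 2 libraries, and genes with few counts at day 0 rest on bounds or wide intervals. The 2 libraries of DM3 day 2 were the least alike, with a rank correlation of 0.962 beside 0.987 to 0.995 in the other groups. Replicate 2 of that group had 17779 genes with a count, against 20122 in replicate 1. Both enter the spread behind every p and the comparisons of the apart rule.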
